A study of Mus musculus with 10 samples.

Results

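The genes described here encode the folding machinery of the endoplasmic reticulum (ER) and the unfolded protein response, the signalling system that adjusts this machinery to its load. They are 35 genes taken by symbol from the 46956 named loci of each table, and all 35 had at least 1 fragment in every sample. By role they are 8 chaperones and co-chaperones, 4 genes of the calnexin and calreticulin cycle, 6 genes of disulfide formation, 4 stress sensors and transcription factors, 9 genes of retrotranslocation and degradation, and 4 genes of protein entry into the ER.

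The samples were tumour-associated macrophages from 4T1 tumours, a mouse mammary carcinoma line of which 100000 cells were implanted into BALB/cJ mice at the mammary fat pad. The 5 control samples came from mice that received PBS as vehicle. The 5 treated samples came from mice given JHU083, a prodrug of the glutamine antagonist 6-diazo-5-oxo-L-norleucine, at 1 mg/kg on days 7 to 13. All tumours were harvested on day 14, and cells positive for CD45, CD11b and F4/80 and negative for 7AAD, CD8, Ly6C and Ly6G were sorted into lysis reagent for sequencing of polyadenylated RNA. The age and sex of the mice, and whether each sample was 1 mouse, are not given in the labels, so the p-values measure the spread between these samples.

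Proteins destined for the cell surface or for secretion enter the ER through the Sec61 channel, fold there with chaperones, gain sugar chains and disulfide bonds, and are exported or, when misfolded, returned to the cytosol and degraded (ER-associated degradation, ERAD). Unfolded protein activates 3 membrane sensors: IRE1, which splices Xbp1 mRNA, ATF6, which is cut to release a transcription factor, and PERK, a kinase that lowers translation and raises ATF4. In macrophages this system serves the secretion of cytokines and enzymes and the display of receptors. Levels below are CPM, fragment counts scaled to library size with TMM factors, in the order of samples 1 to 5 of each group. The deposited FPKM, which are scaled to gene length as well, are used where levels of different genes are compared.

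In all, 12500 loci had enough fragments to be tested, and 34 of the 35 ER genes were among them. At a Benjamini-Hochberg adjusted p under 0.05 in edgeR's quasi-likelihood test, 5 of the 34 were higher in JHU083 (14.7%, against 18.4% of all loci tested) and 12 were lower (35.3%, against 18.3% of all loci). The 5 that rose were Dnajb9, Eif2ak3, Herpud1, Dnajc3 and Selk. The 12 that fell were Creld2, Pdia6, Sdf2l1, Pdia4, Syvn1, Hyou1, Dnajb11, Ero1l, P4hb, Manf, Edem1 and Pdia3. The median log2 fold change of the 34 genes was -0.10, and that of all loci was 0.01. With scaling to library size only, 3 of the ER genes were higher and 17 lower; over all loci this scaling gave 1564 higher and 3141 lower, or 33.2% of calls higher, where TMM gave 2296 and 2293.

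The median absolute log2 fold change was 0.25 over the 34 ER genes and 0.26 over all loci tested. Over those called it was 0.33 for the 17 ER genes and 0.52 for all loci called in either direction, which were 36.7% of those tested. The largest ER change, a log2 fold change of 0.85 for Dnajb9, was exceeded in size by 9.74% of the loci. The groups did not overlap for 3 ER genes with JHU083 above (11.2% of all loci) and for 8 with JHU083 below (11.1% of all loci).

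**Figure D1:**
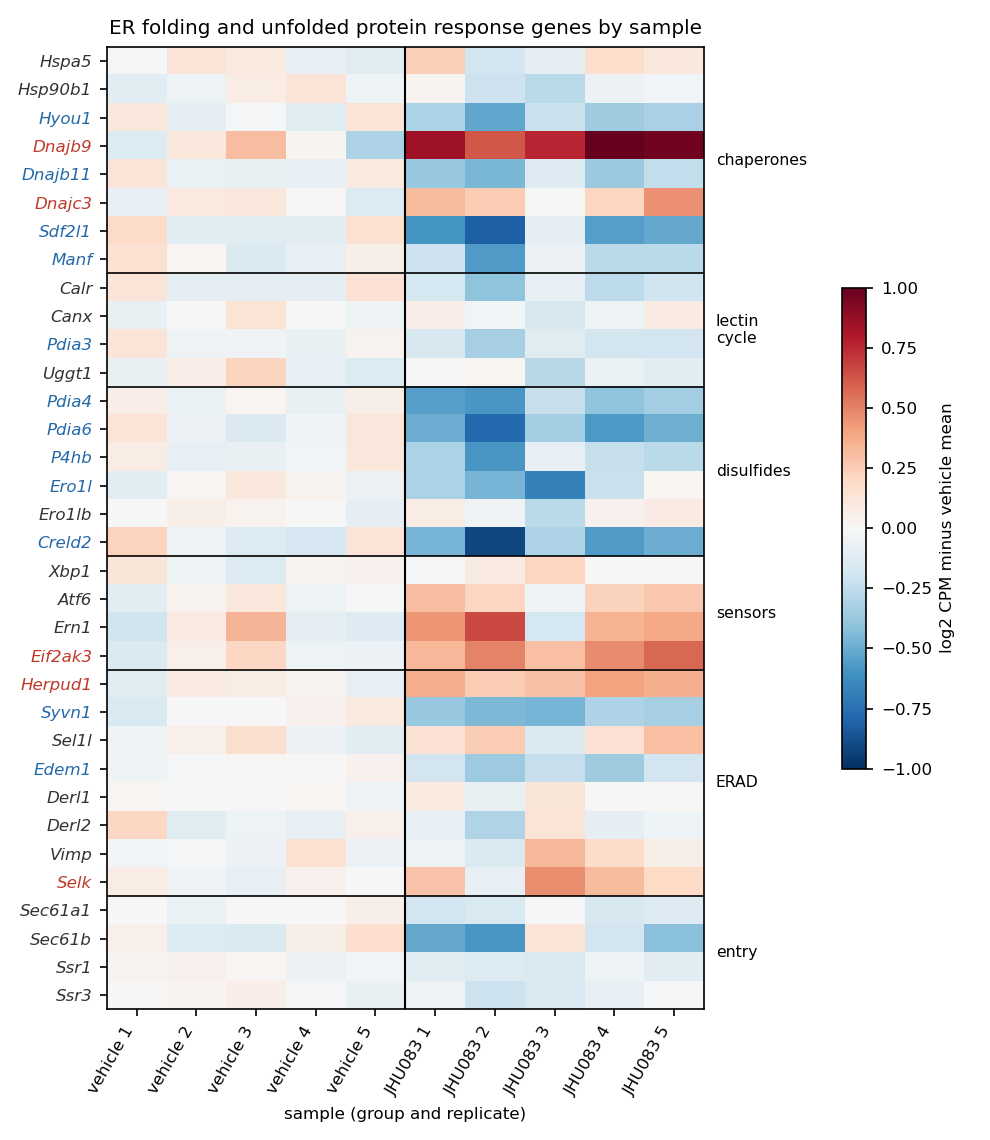
Level of the 34 tested ER genes in each of the 10 samples, as log2 CPM minus the mean of the vehicle samples (colour scale, clipped at -1 and 1), with genes in rows by role and samples in columns; red names rose and blue names fell at an adjusted p under 0.05. Dnajb9 stands out in red in all 5 JHU083 samples, and the rows of the disulfide genes are mostly blue there, with the deepest colour in JHU083 2.

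Among the promoters of these genes, a known regulatory element recurs, and its letters are shown because it is found in genes that rose, fell and passed no threshold alike. The ER stress response element (ERSE) is the site at which ATF6 is known to act together with the CCAAT-binding factor NF-Y, and ERSE-II is its shorter relative. The search covered 250 bases before to 50 bases after the RefSeq start (GRCm38.p6) on both strands, and 30 of the 35 genes had such a window. Hyou1, Manf, Atf6, Derl1 and Sec61a1 had none. ERSE was searched as CCAAT and CCACG with 9 bases of any kind between them and was found in 10 of the 30 (33.3%), against 37 of 27025 genes with a window (0.137%). ERSE-II was searched as ATTGG and CCACG with 1 base of any kind between them and was found in 2 of the 30 (6.67%), against 12 genes (0.0444%). No gene held both.

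The 13 sites follow with 29 bases each, on the strand on which the element reads, with the fixed letters of the element in capitals and its position counted from the RefSeq start along the gene.
Hspa5 (ERSE), chr2:34772020-34772048, plus strand, element at -65 to -47: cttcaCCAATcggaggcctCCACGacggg
Hsp90b1 (ERSE), chr10:86705633-86705661, minus strand, element at -212 to -194: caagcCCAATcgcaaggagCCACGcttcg
Hsp90b1 (ERSE), chr10:86705528-86705556, plus strand, element at -107 to -89: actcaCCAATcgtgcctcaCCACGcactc
Dnajb11 (ERSE-II), chr16:22857843-22857871, plus strand, element at 7 to 17: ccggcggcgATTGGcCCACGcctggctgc
Dnajc3 (ERSE), chr14:118937822-118937850, plus strand, element at -105 to -87: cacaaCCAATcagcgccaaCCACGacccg
Calr (ERSE), chr8:84847070-84847098, plus strand, element at -162 to -144: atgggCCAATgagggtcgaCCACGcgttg
Canx (ERSE), chr11:50325795-50325823, minus strand, element at -145 to -127: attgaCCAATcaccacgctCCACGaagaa
Pdia6 (ERSE), chr12:17266486-17266514, plus strand, element at -98 to -80: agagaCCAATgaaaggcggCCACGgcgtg
Ero1lb (ERSE), chr13:12565677-12565705, minus strand, element at -201 to -183: ggcggCCAATgaggcgggaCCACGaggcc
Creld2 (ERSE), chr15:88819515-88819543, minus strand, element at -126 to -108: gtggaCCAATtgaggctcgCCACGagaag
Herpud1 (ERSE-II), chr8:94386368-94386396, plus strand, element at -52 to -42: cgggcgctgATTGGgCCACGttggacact
Syvn1 (ERSE), chr19:6046527-6046555, plus strand, element at -44 to -26: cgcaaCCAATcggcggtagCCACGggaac
Derl3 (ERSE), chr10:75893237-75893265, minus strand, element at -156 to -138: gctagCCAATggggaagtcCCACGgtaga

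Of the 12 genes with a site, 2 rose (Dnajc3 and Herpud1), 4 fell (Dnajb11, Pdia6, Creld2 and Syvn1), 5 passed no threshold (Hspa5, Hsp90b1, Calr, Canx and Ero1lb) and Derl3 was not tested. Of the 18 genes with a window and no site, 3 rose, 6 fell and 9 passed no threshold. Over all loci tested, 18.4% were higher and 18.3% lower. The letters TGACGTGG, an element of XBP1 and ATF6 known as the UPRE, and TGATGNAAT, an element of ATF4 and CHOP, were in 0 of the 30 windows, against 193 (0.714%) and 293 (1.08%) of all genes. These counts describe these exact letters within these windows only, and variants were not searched. The Herpud1 window holds gttgcatca, which on the other strand differs from TGATGNAAT in its last base. The Hspa5 window holds tgacgtga, which differs from TGACGTGG in its last base.

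The 250 bases before the start are printed for 2 genes that rose and 2 that fell, to set the element in its surroundings; in Creld2 it reads against the gene, so the capitals there show its complement.
Herpud1 (rose), chr8:94386179-94386428, plus strand: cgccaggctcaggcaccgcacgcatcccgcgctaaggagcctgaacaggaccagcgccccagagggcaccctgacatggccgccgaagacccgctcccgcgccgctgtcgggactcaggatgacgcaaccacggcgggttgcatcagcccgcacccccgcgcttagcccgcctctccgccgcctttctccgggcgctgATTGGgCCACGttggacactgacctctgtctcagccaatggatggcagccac
Dnajc3 (rose), chr14:118937682-118937931, plus strand: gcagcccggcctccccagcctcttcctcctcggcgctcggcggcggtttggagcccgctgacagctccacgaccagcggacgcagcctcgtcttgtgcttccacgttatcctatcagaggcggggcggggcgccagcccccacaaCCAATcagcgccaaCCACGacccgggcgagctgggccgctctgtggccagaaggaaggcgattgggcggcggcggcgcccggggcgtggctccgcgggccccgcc
Creld2 (fell), chr15:88819396-88819645, plus strand: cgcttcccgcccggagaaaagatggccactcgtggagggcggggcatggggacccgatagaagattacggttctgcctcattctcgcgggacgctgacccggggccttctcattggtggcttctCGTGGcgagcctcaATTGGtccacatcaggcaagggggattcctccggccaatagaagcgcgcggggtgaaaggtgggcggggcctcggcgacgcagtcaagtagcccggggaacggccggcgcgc
Syvn1 (fell), chr19:6046326-6046575, plus strand: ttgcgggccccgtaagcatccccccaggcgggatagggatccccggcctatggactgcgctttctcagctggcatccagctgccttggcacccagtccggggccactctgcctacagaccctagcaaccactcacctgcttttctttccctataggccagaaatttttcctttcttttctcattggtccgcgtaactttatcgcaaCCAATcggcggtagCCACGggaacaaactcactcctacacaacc

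Of the 8 chaperones and co-chaperones 2 rose (25.0%, against 18.4% of all loci) and 4 fell (50%, against 18.3%). Dnajb9, a BiP co-chaperone also called ERdj4 that is known as a target of XBP1, rose most, and Dnajc3, the co-chaperone P58IPK, rose slightly. Hyou1, Dnajb11, Sdf2l1 and Manf fell. Hspa5 and Hsp90b1, the abundant chaperones BiP and GRP94, passed no threshold in either direction.

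Dnajb9 (chromosome 12, 44205559 to 44210326, GRCm38) had 43.3, 51.1, 58.8, 48.6 and 38.4 CPM in the vehicle samples. In the JHU083 samples it had 85.4, 73.1, 80.8, 102 and 92.8 CPM. Every JHU083 sample lay above every vehicle sample. Mean levels were 48.0 ± 7.77 and 86.8 ± 11.2 CPM (SD, n = 5). On the log2 scale the increase was 0.85 ± 0.12 (SE, edgeR adjusted p = 0.000101), or 80.7%. It was called also in the 5 samples in which the ribosomal locus Rn18s-rs5 is listed at 0 (log2 fold change 0.85) and in the 5 samples in which it is not (0.81).

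Dnajc3 (chromosome 14, 118937976 to 118981697) had 118, 134, 136, 127 and 114 CPM in vehicle and 156, 149, 126, 146 and 172 CPM in JHU083. The groups overlapped through JHU083 3, and the other 4 JHU083 samples lay above all vehicle samples. Its log2 fold change was 0.25 ± 0.09 (SE, edgeR adjusted p = 0.0329).

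Hspa5 (chromosome 2, 34771970 to 34777547) ranked first of the 35 genes by FPKM in both groups, with 654 ± 61.5 in vehicle and 680 ± 79.6 in JHU083 (SD, n = 5). Its CPM were 1366, 1511, 1480, 1306 and 1280 in vehicle and 1635, 1211, 1298, 1561 and 1492 in JHU083. JHU083 1 and 4 lay above the vehicle range and JHU083 2 below it. The log2 fold change was 0.05 ± 0.10 (SE, edgeR adjusted p = 0.714). Hsp90b1, whose locus also lists the symbols Gm15344 and Gm25745, averaged 991 ± 66.7 CPM without and 922 ± 79.6 CPM with JHU083 (SD, n = 5), with a log2 fold change of -0.10 ± 0.08 (SE, edgeR adjusted p = 0.348).

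Hyou1 (chromosome 9, 44379490 to 44392369), which exchanges the nucleotide of BiP, had 229, 200.3, 211, 196 and 233 CPM in vehicle and 171, 149, 183, 167 and 170.1 CPM in JHU083. Dnajb11 (chromosome 16, 22857845 to 22879634), the co-chaperone ERdj3, had 174, 152, 151, 149.9 and 170.3 CPM in vehicle and 123, 116, 146, 123 and 134 CPM in JHU083. For both genes every JHU083 sample lay below every vehicle sample. Their log2 fold changes were -0.35 ± 0.08 and -0.31 ± 0.08 (SE, edgeR adjusted p = 0.00281 and 0.00676).

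Sdf2l1 (chromosome 16, 17130138 to 17132383), a partner of Dnajb11, had 213, 173, 171, 174 and 208 CPM in vehicle and 123, 106, 174, 127 and 131 CPM in JHU083. JHU083 1, 2, 4 and 5 lay below all vehicle samples, and JHU083 3 lay inside the vehicle range. Sdf2l1 had a log2 fold change of -0.50 ± 0.12 (SE, edgeR adjusted p = 0.00449). It was -0.29 in a fit corrected for GC content and length and -0.31 in the 5 samples with Rn18s-rs5 at 0.

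Manf (chromosome 9, 106838312 to 106891979), a small ER protein that binds BiP and can be secreted, had 313, 286, 254, 265 and 293 CPM in vehicle and 243, 190.2, 269.9, 233 and 234 CPM in JHU083. JHU083 3 again lay inside the vehicle range and the other 4 below it. The log2 fold change was -0.27 ± 0.09 (SE, edgeR adjusted p = 0.0309), and the locus also lists Rbm15b, so the value covers both genes.

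The disulfide genes showed the lowest median of the 6 roles. Of the 6, 5 fell (83.3%, against 18.3% of all loci) and 0 rose, with a median log2 fold change of -0.37. In this role and in the lectin cycle the number that rose was 0 also at an unadjusted p under 0.05, with DESeq2 and with limma-voom. Those that fell were the isomerases Pdia4, Pdia6 and P4hb, the oxidase Ero1l, which recharges the isomerases, and Creld2, a stress-induced ER protein with isomerase activity. The summed level of all 6 genes, Ero1lb included, was 2784 to 3137 CPM in vehicle and 1911 to 2586 CPM in JHU083, without overlap.

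Pdia6 (chromosome 12, 17266545 to 17284770) had 694, 607, 570.1, 612 and 683 CPM in vehicle and 449, 368, 499, 424 and 449 CPM in JHU083. Every JHU083 sample lay below every vehicle sample, with JHU083 2 lowest and JHU083 3 highest of the treated group. Mean levels were 633 ± 53.3 and 438 ± 47.6 CPM (SD, n = 5), and the change on the log2 scale was -0.53 ± 0.09 (SE, edgeR adjusted p = 0.000362).

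Creld2 (chromosome 15, 88819646 to 88826683) had 90.6, 74.9, 70.4, 68.9 and 84.9 CPM in vehicle and 56.1, 41.1, 62.7, 52.2 and 54.8 CPM in JHU083, again without overlap. The log2 fold change was -0.55 ± 0.11 (SE, edgeR adjusted p = 0.00186), a decrease from 77.9 ± 9.45 to 53.4 ± 7.87 CPM (SD, n = 5), and it was -0.36 in the 5 samples with Rn18s-rs5 at 0.

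Pdia4 (chromosome 6, 47796141 to 47813430), whose locus also lists Mir704, had 309, 282, 298, 279.8 and 307 CPM in vehicle and 201, 198, 252, 223 and 232 CPM in JHU083. The groups did not overlap, and the log2 fold change was -0.42 ± 0.08 (SE, edgeR adjusted p = 0.00087). P4hb (chromosome 11, 120560298 to 120573253), the isomerase PDI, was the second gene by FPKM, at 622 ± 40.0 in vehicle and 509 ± 60.95 in JHU083 (SD, n = 5). Its CPM were 1841, 1648, 1656, 1717 and 1892 in vehicle and 1404, 1167, 1653, 1488 and 1451 in JHU083. JHU083 3 lay just inside the vehicle range, and the log2 fold change was -0.29 ± 0.10 (SE, edgeR adjusted p = 0.0347).

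Ero1l (chromosome 14, 45283087 to 45318771) differed from the isomerases in which samples were low. It had 132, 144, 153, 146 and 137 CPM in vehicle and 114, 103, 89.3, 122 and 145 CPM in JHU083. JHU083 3 was here the lowest sample, and JHU083 5 lay inside the vehicle range. The log2 fold change was -0.31 ± 0.11 (SE, edgeR adjusted p = 0.0335). Ero1lb, the second ER oxidase, averaged 35.7 ± 1.34 CPM without and 35.3 ± 3.38 CPM with JHU083 (SD, n = 5), and its log2 fold change was -0.02 ± 0.08 (SE, edgeR adjusted p = 0.899).

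In the calnexin and calreticulin cycle, lectin chaperones hold glycoproteins until they fold. Of its 4 genes 1 fell (25.0%, against 18.3% of all loci) and 0 rose (against 18.4% of all loci). Pdia3 (chromosome 2, 121413775 to 121438687), the isomerase that works with these lectins, had 937, 829, 838, 813 and 878 CPM in vehicle and 769.7, 683, 788, 754 and 751 CPM in JHU083. The groups did not overlap, and the log2 fold change was -0.20 ± 0.07 (SE, edgeR adjusted p = 0.0454). Calr, which encodes calreticulin and was the third gene by FPKM, had 1237, 1065, 1059, 1062 and 1255 CPM in vehicle and 1001, 858, 1068, 945 and 987 CPM in JHU083. All but JHU083 3 lay below the vehicle range, and the log2 fold change was -0.22 ± 0.09 (SE, edgeR adjusted p = 0.0581). Calr passed as lower with DESeq2, with limma-voom and, in edgeR, with library size only, with the filter on CPM and without the ribosomal loci; over the 12 alternatives that did not leave out a single sample its adjusted p ranged from 0.00675 to 0.604. Canx, the membrane lectin calnexin, and Uggt1, the enzyme that returns unfolded glycoproteins to the cycle, had log2 fold changes of -0.02 ± 0.07 and -0.09 ± 0.08 (SE, edgeR adjusted p = 0.869 and 0.417).

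**Figure D2:**
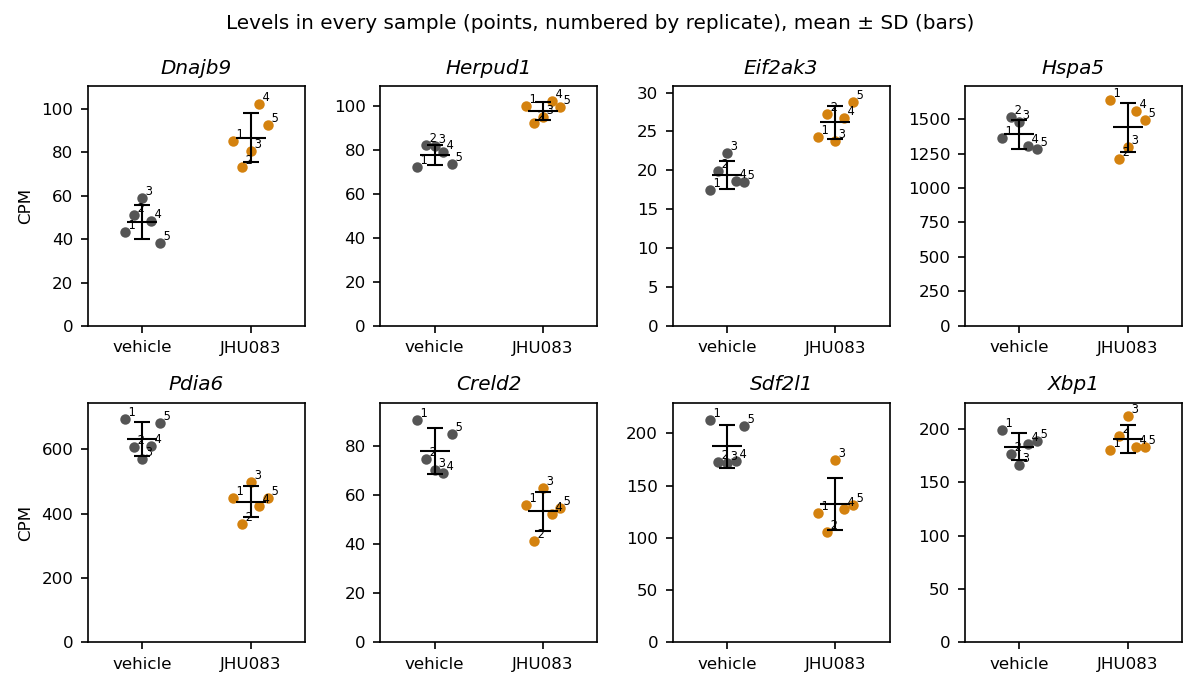
Level of 8 ER genes in CPM (vertical axis, from 0) in the 5 vehicle samples (grey) and the 5 JHU083 samples (orange), each point 1 sample with its replicate number, bars showing the mean ± SD. Dnajb9, Herpud1 and Eif2ak3 are higher and Pdia6 and Creld2 lower in JHU083 without overlap, JHU083 3 lies in the vehicle range for Sdf2l1, and the groups overlap for Hspa5 and Xbp1.

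Of the 4 sensors and transcription factors 1 rose (25.0%, against 18.4% of all loci), Eif2ak3, which encodes PERK, and the other 3 passed no threshold. Eif2ak3 (chromosome 6, 70844515 to 70905245) had 17.5, 19.96, 22.3, 18.7 and 18.6 CPM in vehicle and 24.3, 27.2, 23.8, 26.8 and 28.8 CPM in JHU083. Every JHU083 sample lay above every vehicle sample. For Eif2ak3 the log2 fold change was 0.43 ± 0.09 (SE, edgeR adjusted p = 0.00259). By FPKM it was the lowest of the tested genes in both groups, at 4.62 ± 0.85 in vehicle and 6.65 ± 1.145 in JHU083 (SD, n = 5).

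Ern1, which encodes IRE1, had 31.2, 37.9, 45.5, 33.7 and 32.7 CPM in vehicle and 48.7, 56.7, 31.7, 45.6 and 47.0 CPM in JHU083. Atf6 had 85.2, 93.8, 99.0, 88.4 and 91.7 CPM in vehicle and 113, 106, 89.5, 107 and 110.5 CPM in JHU083. For both genes 4 JHU083 samples lay above the vehicle range and JHU083 3 lay within it. Their log2 fold changes were 0.34 ± 0.14 and 0.20 ± 0.08 (SE, edgeR adjusted p = 0.0687 and 0.0549).

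Xbp1 (chromosome 11, 5520659 to 5525893), the transcription factor made active by IRE1, had 199, 177, 166, 186 and 189 CPM in vehicle and 180.4, 194, 212, 183 and 183 CPM in JHU083. The groups overlapped, and the log2 fold change was 0.06 ± 0.07 (SE, edgeR adjusted p = 0.573). These counts per gene do not separate spliced from unspliced Xbp1, so they hold no measure of IRE1 activity.

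Of the 8 tested genes of retrotranslocation and degradation 2 rose and 2 fell (25.0% each, near the 18.4% and 18.3% of all loci). Herpud1, a membrane protein that organises the Hrd1 ubiquitin ligase complex, and Selk, a selenoprotein of the ER membrane, rose. Syvn1, which encodes Hrd1 itself, and Edem1, which marks glycoproteins for disposal, fell. The other 4 tested genes passed no threshold.

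Herpud1 (chromosome 8, 94386438 to 94395377) had 72.3, 82.3, 81.8, 79.1 and 73.5 CPM in vehicle and 100.2, 92.5, 95.1, 102 and 99.7 CPM in JHU083. Syvn1 (chromosome 19, 6046576 to 6053712) had 28.7, 32.0, 31.9, 32.8 and 34.1 CPM in vehicle and 24.5, 23.3, 23.0, 25.7 and 25.3 CPM in JHU083. The groups did not overlap for either gene, with Herpud1 higher and Syvn1 lower in every JHU083 sample. The log2 fold changes were 0.33 ± 0.07 for Herpud1 and -0.39 ± 0.08 for Syvn1 (SE, edgeR adjusted p = 0.00186 and 0.00159). Corrected for GC content and length, that of Syvn1 was -0.23. Both hold an element in the promoter windows shown above, ERSE-II in Herpud1 and ERSE in Syvn1.

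Edem1 (chromosome 6, 108828641 to 108859356) had 198, 201, 205, 204 and 209 CPM in vehicle and 179, 158, 174, 159 and 178 CPM in JHU083. The vehicle samples lay close together and all JHU083 samples lay below them. The log2 fold change was -0.26 ± 0.06 (SE, edgeR adjusted p = 0.00557). Selk (chromosome 14, 29968308 to 29975662) had 92.0, 84.5, 82.6, 90.0 and 87.5 CPM in vehicle and 106, 82.6, 120.1, 109 and 99.99 CPM in JHU083. JHU083 2 was level with the lowest vehicle sample and the other 4 above it, and the log2 fold change was 0.24 ± 0.09 (SE, edgeR adjusted p = 0.0466).

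Sel1l, the partner of Hrd1, and the derlins Derl1 and Derl2, membrane proteins of the export route, had log2 fold changes of 0.14, 0.03 and -0.07. Vimp, the selenoprotein that anchors the p97 ATPase, had 0.08. The edgeR adjusted p-values of these 4 lay between 0.208 and 0.686. Derl3 was left out by the filter on low values, with 3 to 10 fragments in the vehicle samples and 2 to 6 in the JHU083 samples. Without that filter its log2 fold change was -1.20 ± 0.56 (SE, edgeR adjusted p = 0.140).

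Genes of protein entry showed 0 edgeR calls among 4, against 36.7% of all loci called in either direction. At an unadjusted p under 0.05, 0 were higher and 1 lower, DESeq2 called Sec61a1 lower and limma-voom called 0. With scaling to library size only, which moved calls downward over all loci, all 4 were called lower. Sec61a1 and Sec61b, subunits of the Sec61 channel, had log2 fold changes of -0.13 ± 0.06 and -0.29 ± 0.12 (SE, edgeR adjusted p = 0.117 and 0.0805). Ssr1 and Ssr3, subunits of the translocon-associated TRAP complex, had -0.11 ± 0.06 and -0.10 ± 0.06 (SE, edgeR adjusted p = 0.152 and 0.22). In Sec61b the spread was wide, since JHU083 3 had 99.2 CPM and the other JHU083 samples had 60.3 to 79.4 CPM, against 81.5 to 101 CPM in vehicle.

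**Figure D3:**
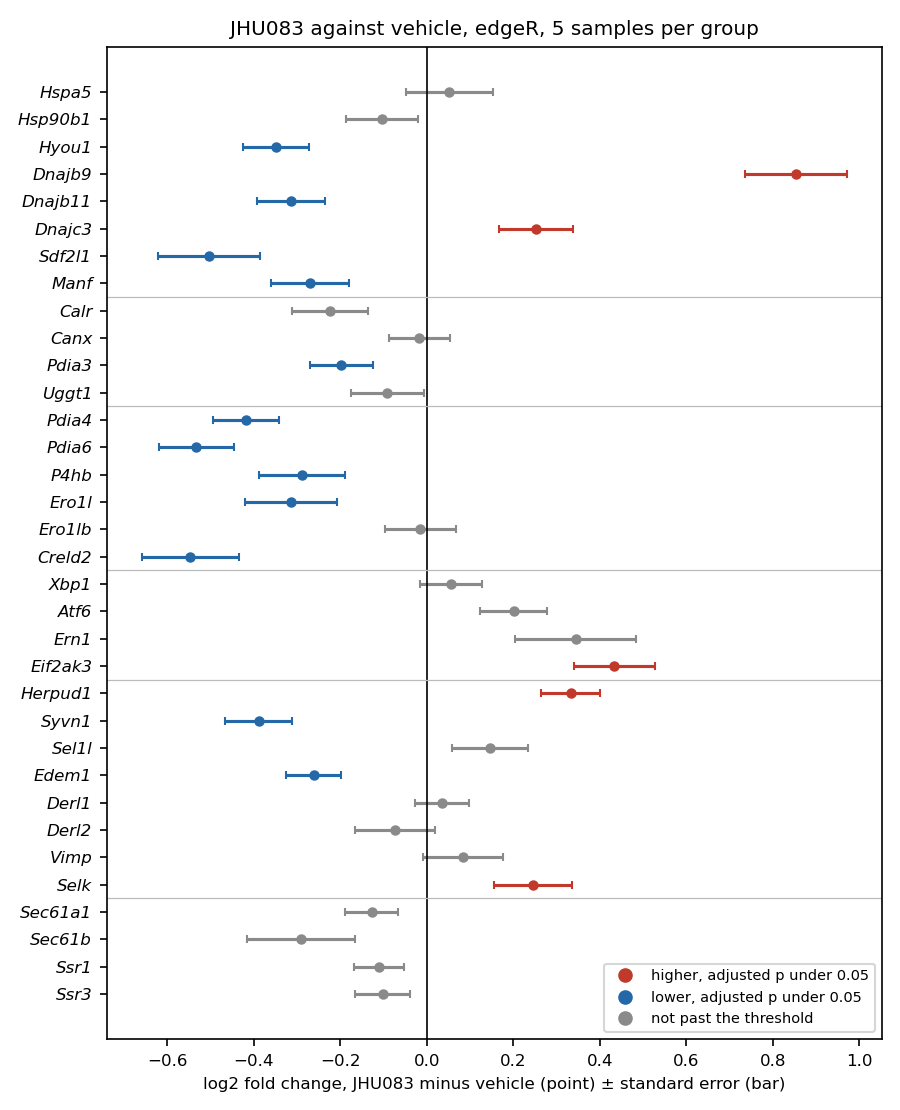
Log2 fold change of the 34 tested ER genes, JHU083 minus vehicle (points, horizontal axis), with its standard error (bars), in 6 blocks by role from chaperones at the top to protein entry at the bottom. Red points rose and blue points fell at an adjusted p under 0.05; of the 6 disulfide genes in the third block 5 are blue, and Dnajb9 lies farthest from 0 at 0.85.

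As a share of all fragments, the 35 genes together made up 1.13%, 1.15%, 1.11%, 1.10% and 1.11% in the vehicle samples and 1.00%, 0.876%, 0.948%, 0.959% and 0.982% in the JHU083 samples. The groups did not overlap. These shares are scaled to library size only, without TMM factors, a scaling that moved calls downward over all loci. The genes with the most fragments were, by mean CPM in vehicle, P4hb (1751), Hspa5 (1389), Calr (1136), Hsp90b1 (991) and Pdia3 (859). In bulk samples a smaller share of one cell type and less RNA per cell cannot be told apart.

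Some samples of each group stood apart across many of these genes. JHU083 2 was the lowest of its group in 20 of the 34 genes, and in 10 of the 12 genes that fell. JHU083 3 was the highest of its group in 17 and the lowest in 12, and the highest in 9 of the 12 genes that fell. In the vehicle group, vehicle 1 was the highest in 7 and vehicle 5 in 4 of the 12 genes that fell. These 2 samples also had the most fragments of the plasma cell markers Igkc (27 and 35, against 3 to 5 in the other vehicle samples), Jchain (16 and 15, against 0 or 1) and Ighm (55.5 and 58.2 CPM, against 31.8 to 36.3 CPM). Other markers of that list ran the other way: Sdc1 was lowest in these 2 samples (25.0 and 19.3 CPM, against 26.7 to 37.8 CPM), Prdm1 was lowest in vehicle 1, and Tnfrsf17 was at 0 in both. JHU083 3 had the lowest summed level of tumour epithelium markers (100.1 CPM) and of fibroblast markers (25.9 CPM). Leaving it out gave 7 genes higher and 15 lower, with Atf6 (edgeR adjusted p = 0.00513), Ern1 (0.00404), Sel1l (0.0265), Calr (0.0229), Sec61a1 (0.036) and Sec61b (0.00232) then past the threshold and Selk (0.0726) no longer. Calls rose over all loci too, to 2899 higher and 2930 lower in that fit, from 2296 and 2293 with all 10 samples.

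Of the 17 calls, 11 held in each of the 10 fits that left out 1 sample, and 6 did not. Selk passed only without JHU083 2, with an edgeR adjusted p of 0.0619 to 0.097 in the other 9 fits. Pdia3 passed only without vehicle 4 or JHU083 3 (0.0561 to 0.129 in the other 8), and Dnajc3 without vehicle 2, vehicle 3 or JHU083 3 (0.053 to 0.0882 in the other 7). These 6 had the highest adjusted p-values of the called genes. P4hb passed without vehicle 2, vehicle 3 or JHU083 3 (0.0508 to 0.0815 in the other 7). Without JHU083 3, 5 of these 6 genes passed. Manf passed without vehicle 3, vehicle 4, JHU083 1 or JHU083 3 (0.056 to 0.0852 in the other 6). Ero1l passed without vehicle 1, vehicle 5, JHU083 3, JHU083 4 or JHU083 5 (0.0596 to 0.0809 in the other 5). Atf6 and Ern1 passed also without vehicle 3 (0.0429 and 0.0234).

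The libraries held 11147722 to 15740482 fragments, so a level of 3 fragments corresponds to 0.191 to 0.269 CPM. The ribosomal loci Rn18s-rs5 and Gm42418 are listed at 0 in 3 vehicle samples (2, 4 and 5) and 2 JHU083 samples (1 and 3). All 17 called genes had the same sign within the 5 samples at 0 and within the other 5. In the first set 1 gene passed the threshold (Dnajb9), and in the second 8 did (Dnajb9, Eif2ak3, Hyou1, Dnajb11, Sdf2l1, Pdia4, Pdia6 and Creld2). In the first set the log2 fold changes of Manf and Pdia3 were smaller (-0.13 and -0.11) and those of Ero1l and Selk larger (-0.48 and 0.38), and in the second that of Selk was 0.15. The macrophage markers Adgre1, Csf1r and Mertk rose, and 0 of 10 macrophage markers fell. Markers of other cells moved as well: all 7 tested markers of tumour epithelium fell, with a summed level of 279 to 605 CPM in vehicle and 100.1 to 213 CPM in JHU083, and 5 of 7 fibroblast markers fell (103 to 226 and 25.9 to 115 CPM). Of 7 neutrophil markers 4 were tested: S100a8 (log2 fold change -1.40) and S100a9 (-2.18) fell without overlap and Csf3r (0.53) rose without overlap (edgeR adjusted p = 0.000872, 0.000196 and 0.000663), with a summed level of 89.2 to 100.03 CPM in vehicle and 91.9 to 141 CPM in JHU083. The dendritic cell marker Cd209a (2.09), the eosinophil marker Siglecf (0.89) and the B cell marker Cd79b (0.51) rose (edgeR adjusted p = 0.000363, 0.0115 and 0.0498), each averaging under 8 CPM in both groups. They were 1 of 4 tested dendritic cell markers, 1 of 3 tested eosinophil markers and the only tested marker of 5 for B cells. The other tested markers of these lists passed no threshold. Of 8 plasma cell markers 3 were tested and 2 fell (Ighm and Sdc1; summed level 124 to 138 and 83.2 to 110.1 CPM), while Jchain, Mzb1, Igha, Igkc and Tnfrsf17 were too low to test and at 0 in some samples. Of these, Igkc was lower in JHU083 without overlap (0.261 to 2.74 CPM in vehicle and 0 to 0.224 CPM in JHU083). Tumour cells and fibroblasts, which lack CD45, plasma cells, which lack F4/80, and neutrophils, which carry Ly6G, lie outside the sort gate. Tumour cells, fibroblasts and plasma cells also express ER folding genes, and the part of these and the other cells in the changes above was not tested.

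GC content moved with the calls. The median GC content of the longest GENCODE M21 transcript was 45.7% for the 5 genes that rose, 50.8% for the 12 that fell and 49.6% for all loci tested with a value. Over all loci called it was 47.0% for those higher and 52.4% for those lower. A fit corrected for GC content and length, chosen after seeing the data, called 2786 loci higher and 2145 lower, or 56.5% of calls higher, against 2296 and 2293 without it. In that fit Dnajb9, Eif2ak3, Herpud1 and Selk remained higher, and Ern1 (log2 fold change 0.34, edgeR adjusted p = 0.00461) and Xbp1 (0.17, adjusted p = 0.0291) were higher too. Dnajc3, Manf and P4hb no longer passed (log2 fold change 0.13, -0.14 and -0.16, edgeR adjusted p = 0.0856, 0.438 and 0.14). Hsp90b1 (-0.20, adjusted p = 0.0316) and Ssr3 (-0.23, adjusted p = 0.00505) passed as lower.

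**Figure D4:**
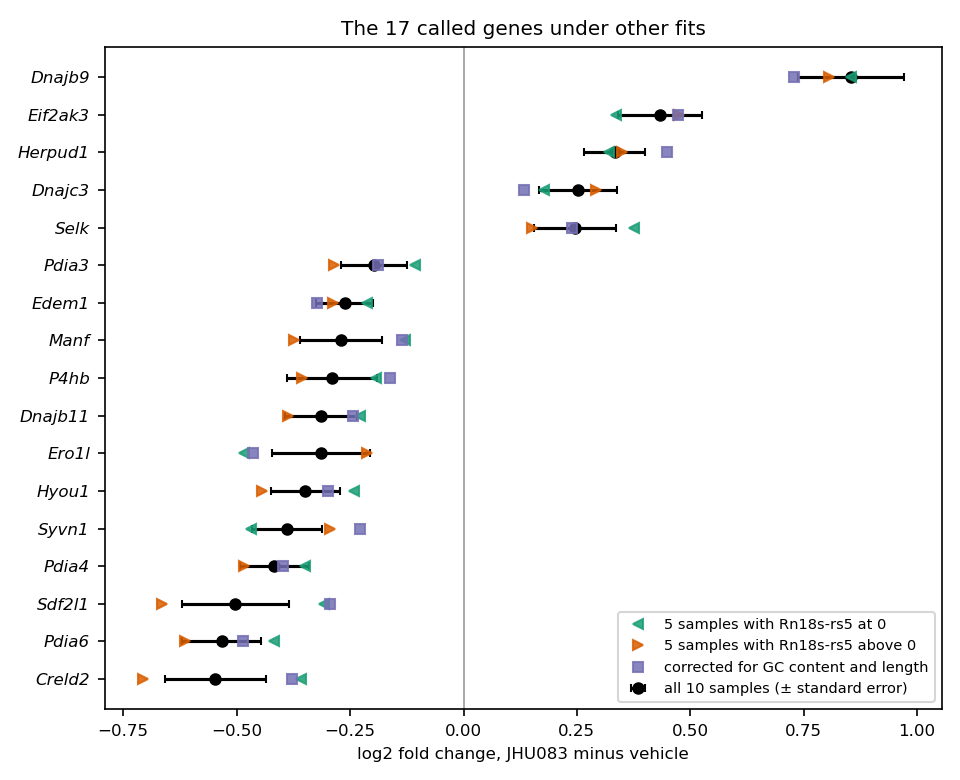
Log2 fold change of the 17 called ER genes, JHU083 minus vehicle (horizontal axis), in all 10 samples (black points with the standard error), in the 5 samples with Rn18s-rs5 listed at 0 and the 5 with it above 0 (triangles), and with a correction for GC content and transcript length (squares). All 17 genes lie on the same side of 0 in each of these fits.

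Around these 35 genes, 124 further genes of ER protein handling were examined in 9 lists, and 121 of them were tested. At an edgeR adjusted p under 0.05, 17 rose (14.0%, against 18.4% of all loci) and 22 fell (18.2%, against 18.3% of all loci), so their overall shares were near the background. The median log2 fold change was -0.04.

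The outputs of the PERK branch and the phosphatase subunits that reverse it had the highest median of these lists, 0.32, with 5 of 8 genes higher (62.5%, against 18.4% of all loci) and 0 lower in edgeR (1 lower at an unadjusted p under 0.05 and with DESeq2, 0 with limma-voom). The log2 fold change was above 0 for 6 of the 8 genes and below 0 for 2, the lowest at -0.24. Atf4, the transcription factor whose translation PERK favours, had 260, 247, 226, 266 and 263 CPM in vehicle and 308, 259, 335, 333 and 311 CPM in JHU083. Ddit3, the stress factor CHOP, had 22.2, 23.8, 25.9, 24.5 and 24.2 CPM in vehicle and 30.6, 23.4, 35.5, 29.6 and 33.2 CPM in JHU083. In both genes JHU083 2 lay inside the vehicle range and the other 4 above it. The log2 fold changes were 0.29 ± 0.08 for Atf4 and 0.34 ± 0.11 for Ddit3 (SE, edgeR adjusted p = 0.0109 and 0.0224). Atf3 rose by 0.61 ± 0.12 and Ppp1r15a, which encodes the phosphatase subunit GADD34, by 0.35 ± 0.09 (SE, edgeR adjusted p = 0.00152 and 0.00669). The fifth was Ppp1r15b (0.29 ± 0.07, SE, edgeR adjusted p = 0.00341), named after its value was seen. Corrected for GC content and length, Atf4 had 0.46. Ddit3 did not pass without vehicle 1 (adjusted p = 0.059) or without JHU083 5 (adjusted p = 0.0566).

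In N-glycosylation, which attaches and trims the sugar chains read by the lectin cycle, 8 of 13 genes fell (61.5%, against 18.3% of all loci) and 0 rose, with a median log2 fold change of -0.22; 0 rose also at an unadjusted p under 0.05, with DESeq2 and with limma-voom. Mogs, the glucosidase that makes the first cut of the chain, had 129, 103, 103, 109.8 and 123 CPM in vehicle and 65.5, 59.8, 83.9, 62.4 and 64.9 CPM in JHU083. The groups did not overlap, and the log2 fold change was -0.75 ± 0.10 (SE, edgeR adjusted p = 8.24e-05). Krtcap2 and Rpn1, subunits of the oligosaccharyltransferase, fell by 0.46 ± 0.09 and 0.41 ± 0.09 on the log2 scale (SE, edgeR adjusted p = 0.00183 and 0.00258). Over the 12 alternatives that did not leave out a single sample, Rpn1 ranged from -0.52 to -0.26.

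Of 13 other disulfide isomerases and oxidases 3 were higher and 3 lower (23.1% each, near the 18.4% and 18.3% of all loci). Those higher were Qsox1 (log2 fold change 0.31), Tmx4 (0.32) and Tmx2 (0.24), the last at a locus shared with Ctnnd1 and Gm28635; they were named after their values were seen. Those that fell were Pdia5 (log2 fold change -0.47), Prdx4, a peroxidase that passes oxidation to the isomerases (-0.42), and Txndc5 (-0.33), with edgeR adjusted p = 0.034, 0.0021 and 0.00311. Of 6 prolyl isomerases tested 2 rose and 2 fell (33.3% each, against 18.4% and 18.3% of all loci). Fkbp7 (1.11 ± 0.21) and Fkbp14 (1.051 ± 0.28) rose, Fkbp11 fell (-1.09 ± 0.35, SE, edgeR adjusted p = 0.000983, 0.00885 and 0.0266) and so did Fkbp2 (-0.37), named after its value was seen. The first 3 were scarce, at 1.13 to 4.34 CPM in vehicle. Among other chaperones 1 of 13 rose (7.69%, against 18.4% of all loci), the co-chaperone Dnajb14, whose locus also lists Gm15460 (0.34 ± 0.08, SE, edgeR adjusted p = 0.00392). With the GC and length correction Dnajb14 did not pass (0.19, adjusted p = 0.178), nor did Tmx4 (0.17, adjusted p = 0.077) and Fkbp2 (-0.14, adjusted p = 0.234). Pdia5 did not pass without vehicle 1, vehicle 3, vehicle 5, JHU083 2 or JHU083 5 (adjusted p = 0.0572 to 0.0874), and Fkbp11 not without vehicle 1, vehicle 2, JHU083 1 or JHU083 5 (0.0577 to 0.0783). Over the 12 alternatives that did not leave out a single sample, Pdia5 ranged from -0.65 to -0.30 and lost its call in 4. Prdx4 ranged from -0.56 to -0.25 over these 12 and lost its call in 1.

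Of 22 other ERAD genes 6 rose (27.3%, against 18.4% of all loci) and 2 fell (9.09%, against 18.3%). Svip, a small protein that binds the p97 ATPase, had 7.81, 10.5, 10.6, 10.9 and 9.86 CPM in vehicle and 18.6, 15.7, 15.3, 17.3 and 15.98 CPM in JHU083. Ngly1, which strips sugar chains from proteins returned to the cytosol, ranged from 20.7 to 24.7 CPM over the vehicle samples and from 30.3 to 33.1 CPM over the treated ones. Both were higher in JHU083 without overlap, by 0.74 ± 0.11 and 0.50 ± 0.08 on the log2 scale (SE, edgeR adjusted p = 0.00022 and 0.000216). Herpud2, the relative of Herpud1, rose by 0.36 ± 0.10 (SE, edgeR adjusted p = 0.0125). The 2 that fell, Edem2 (-0.34) and Vcp, the p97 ATPase itself (-0.23), were named after their values were seen.

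Of 19 further genes of translocation 2 fell (10.5%, against 18.3% of all loci), Ssr2 (-0.39 ± 0.09) and Sec61g (-0.29 ± 0.09, SE, edgeR adjusted p = 0.00404 and 0.0233), and 0 rose, where an unadjusted p under 0.05, DESeq2 and limma-voom each gave 1. With the GC and length correction Ssr2 had -0.20. Sec61g did not pass without vehicle 1 (adjusted p = 0.054) or JHU083 5 (0.0585). Of 19 genes of COPII export and KDEL retrieval, which carry folded cargo out and bring escaped chaperones back, 4 fell (21.1%, against 18.3% of all loci). Of these 19 genes 0 rose (against 18.4% of all loci), and 0 rose by those other counts. The retrieval receptors Kdelr3 and Kdelr2 had log2 fold changes of -1.64 ± 0.39 and -0.31 ± 0.08 (SE, edgeR adjusted p = 0.00529 and 0.00898), and Kdelr1 had -0.05 ± 0.09 (SE, edgeR adjusted p = 0.651). Kdelr3 was scarce, at 1.22 to 4.88 CPM in vehicle and 0.546 to 1.51 CPM in JHU083. Kdelr2 ranged from -0.40 to -0.19 over the 12 alternatives that did not leave out a single sample. Sec31a, a coat subunit named after its value was seen, had -0.20 ± 0.07 (SE, edgeR adjusted p = 0.0307). Preb, which starts COPII coat assembly, fell by 0.34 ± 0.08, and Atf6b, the relative of Atf6 and the only call among 8 other stress factors (12.5%, against 36.7% of all loci), fell by 0.37 ± 0.09 on the log2 scale (SE, edgeR adjusted p = 0.00391 and 0.00552). With the GC and length correction Atf6b (-0.15, adjusted p = 0.176) and Sec31a (-0.14, adjusted p = 0.0824) did not pass, and Edem2 had -0.22.

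**Figure D5:**
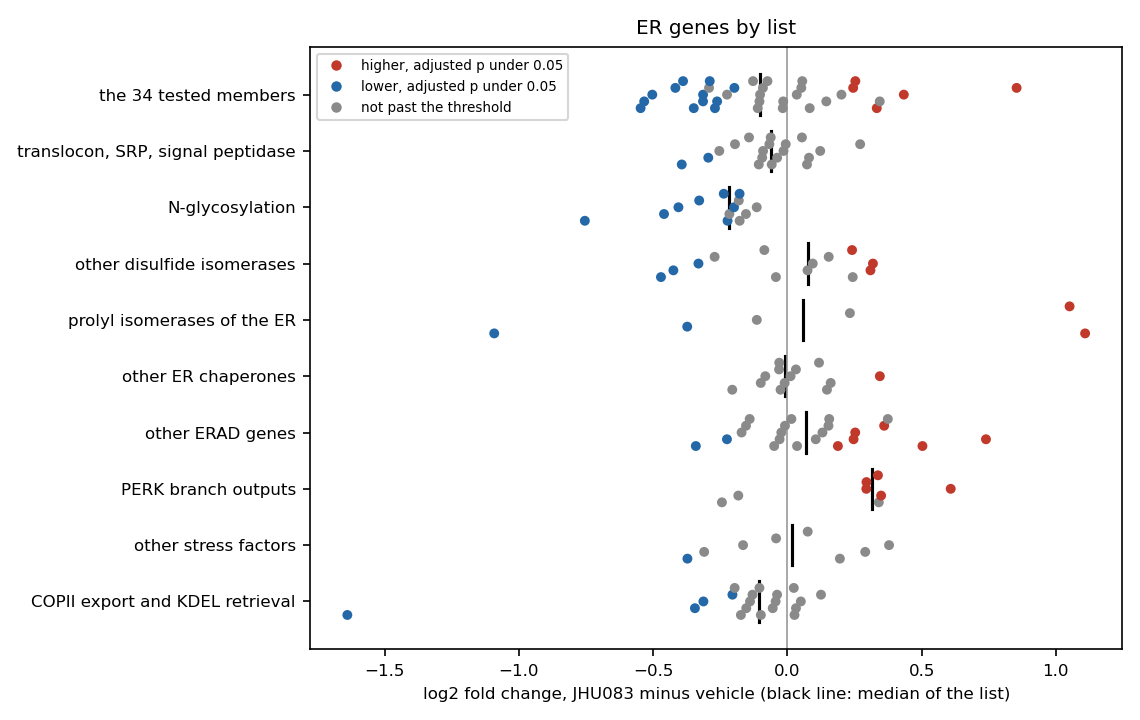
Log2 fold change, JHU083 minus vehicle (horizontal axis), of the 34 tested ER genes and of 9 further lists (rows), each point 1 gene, coloured by its call, with a black line at the median of each list. The N-glycosylation genes lie below 0 with a median of -0.22 and the PERK branch outputs have the highest median of these rows, 0.32.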

How the data were processed

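RNA was measured in 5 vehicle and 5 JHU083 samples of sorted macrophages. Per the labels' protocols the libraries were poly(A)-selected, randomly primed and sequenced as Illumina read pairs. Per the submitters' processing notes, bcl2fastq 2.17.1.14, FastQC 0.11.2, TopHat2 2.1.1 and the build GRCm38 were used; the counting program and the annotation are not given in the sources used here. The authors deposited 2 values per locus: a column headed as raw counts, which is not whole and was treated as an expected count, and FPKM. In each sample these expected counts are multiples of a step of 0.888 to 1.17. Division by the step gave whole numbers (within 0.02 fragments) for 98.96% to 99.35% of positive values, which were rounded and taken as fragment counts. That they are the authors' fragment counts is an inference from the values.

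JHU083 was compared with vehicle in edgeR 4.0.16 (R 4.3.3; filterByExpr, TMM, quasi-likelihood F-test, no covariate, Benjamini-Hochberg adjustment over all loci tested, threshold 0.05). Adjusted p-values in the text are edgeR's except where a different tool is given, and SE is the absolute log2 fold change over the square root of F. Log2 CPM used a prior count of 2. The 1 locus without a symbol was left out. The fit was tested on simulated data.

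The 35 genes, the other ER lists and the marker lists were chosen with earlier results of these data known. Named genes are all 35, up to 3 genes per other list with the largest change among those called, and Atf4, Ddit3, Kdelr1, Kdelr2 and Kdelr3. Gene positions, GC content and transcript lengths come from GENCODE M21 by symbol; promoter windows come from RefSeq (GRCm38.p6), and a gene with several starts counted as holding an element if any window did. Other settings tried were other tests (DESeq2 1.42.0 and voom in limma 3.58.1), scalings and filters, the replicate number as a block, the deposited values rounded, leaving out each sample, the loci at 0 or either set of samples, and, added after seeing the data, a correction for GC content and length (mgcv 1.9.3). Protein features were planned and are not used here. Python 3.11.15, numpy 2.4.6, pandas 2.3.3 and matplotlib 3.10.9 were used.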

Additional observations from a re-analysis of the deposited data

Results flagged for a closer look

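Among 116 groups of 5 values (58 named genes in each treatment), 4 held a sample far from the others by Dixon's test at the 95% level; chance flags about 1 in 20 groups, or 5.8 of 116. In the JHU083 group, Atf6 was lowest in JHU083 3 at 6.49 log2 CPM, where the other 4 samples had 6.74 to 6.82. Mogs was highest in JHU083 3 at 6.39 log2 CPM, with 5.91 to 6.04 in the other 4, and Txndc5 was highest there at 7.07 log2 CPM, with 6.75 to 6.79 in the other 4. In the vehicle group, Vimp was highest in vehicle 4 at 6.28 log2 CPM, with 6.07 to 6.11 in the other 4.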

How the results depend on the processing

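The ER genes counted as higher (5) and lower (12) became 3 and 17 with library size only, 3 and 8 with the replicate block, 1 and 0 in the 5 samples with Rn18s-rs5 at 0, and 2 and 6 in the other 5; they ranged from 3 to 7 and from 8 to 15 when 1 sample was left out. The other ER genes (17 and 22) became 10 and 41 with library size only, 11 and 14 with the replicate block, 2 and 1 in the samples at 0, and 8 and 12 in the other 5, and ranged from 13 to 22 and from 14 to 34 when 1 sample was left out. All loci called became 532 higher and 586 lower in the samples at 0 and 1335 and 1518 in the other 5; these fits hold fewer samples. Over all loci, library size only gave 1564 higher and 3141 lower, and the replicate block gave 1612 and 1757. With 1 sample left out, all loci called ranged from 1821 to 2899 higher and from 1900 to 2930 lower. For the library size and block fits the cause was not tested. Same-numbered samples did not deviate together (mean correlation -0.19, 0 of 5 pairs over 0.1), so the block pairs samples that share only a number; it ended the calls of Dnajc3, Ero1l, Manf, P4hb, Pdia3 and Selk, and 0 of 5 numbers had their best match in the sample with the same number.

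The sign turned only for genes that passed no threshold, in each case with a value near 0 and a cause that was not tested. With library size only, Hspa5 had -0.031, Xbp1 -0.0255, Derl1 -0.047 and Vimp -0.0015. In the samples with Rn18s-rs5 above 0, Hspa5 had -0.0031, Derl1 -0.0313 and Ero1lb 0.0149, and in those at 0, Derl2 had 0.0867 and Kdelr1 0.0183. Kdelr1 had 0.0668 with the GC correction. With 1 sample left out, Canx ranged from -0.0388 to 0.0195 and Ero1lb from -0.0398 to 0.0428. Of all values of the 34 ER genes under the 22 alternatives, 630 kept direction and side of the threshold, 82 lost and 25 gained a call, and 11 changed sign. DESeq2 called 6 higher and 14 lower, limma-voom 4 and 13. Selk lost its call with limma-voom, and Dnajc3 and Selk lost theirs with library size only. Without the filter on low values P4hb, Pdia3 and Selk lost their calls, and Ern1 and Sec61b were called. A library's depth limits Derl3 most, at 2 to 10 fragments.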

Other observations

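Outside the 35 genes, ERSE or ERSE-II was found in the promoter windows of 37 genes, of which 29 matched a locus and 12 were tested. At an edgeR adjusted p under 0.05, 3 of the 12 were higher in JHU083 (Spats2l, Lrif1 and Rbm39, against 18.4% of all loci), 2 were lower (Krtcap2 and Rcl1, against 18.3% of all loci) and 7 passed no threshold. Among the 7 were Alg12, an enzyme that builds the sugar chain (-0.21 ± 0.11, SE, adjusted p = 0.164), and Nucb1 (-0.05 ± 0.09, SE, adjusted p = 0.676). These genes were named after their values were seen. The change of Spats2l was the largest (2.19 ± 0.20, SE, adjusted p = 4.15e-06), and Rcl1 had -0.61 ± 0.10 (SE, adjusted p = 0.000369). The locus of Lrif1 also lists Gm38253 (0.51 ± 0.14, SE, adjusted p = 0.013).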
